A study of Mus musculus with 12 samples.

Results

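The genes described here are the integrin subunits and the focal adhesion adaptor proteins of 2 mouse cell lines, and their messenger RNA after a short exposure to the kinase inhibitor rebastinib. A list of 42 gene symbols defined the set, and all 42 were found among the 55421 gene rows of the count table through the GENCODE vM21 annotation. The set holds 13 alpha subunits, 7 beta subunits, 5 integrin activators (talins and kindlins), 5 members of the integrin-linked kinase, PINCH and parvin complex, 4 signalling proteins (Ptk2, Ptk2b, Pxn and Bcar1) and 8 proteins that tie adhesions to actin. PMJ2R is a macrophage line from the peritoneal lavage of the C57BL6J mouse, and both of its groups carry the v-raf and v-myc oncogenes. ID8 is labelled as epithelial cells of the ovarian epithelium of wild-type C57BL6J mice. Both lines are labelled female. Each line was taken after 6 h with 5 nM rebastinib and as a control, with 3 libraries in each of the 4 groups, and the vehicle of the controls is not given in the sources used here. ID8 cells were detached with trypsin before they were frozen, and no such step is given for PMJ2R cells, so a difference in handling cannot be told apart from a difference between the lines. The series design also names chemotherapy arms, which are not analysed here.

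Integrins are surface receptors made of an alpha and a beta subunit that bind extracellular matrix or counter-receptors on other cells. Talins and kindlins bind the cytoplasmic tail of the beta subunit and switch the receptor to its active state, and the complex of integrin-linked kinase (Ilk), PINCH (Lims1) and a parvin joins that tail to actin. Focal adhesion kinase (Ptk2) and its relative Pyk2 (Ptk2b) signal from the adhesion through the scaffolds paxillin (Pxn) and Cas (Bcar1), while vinculin, zyxin, tensins, vinexin (Sorbs3), filamin and alpha-actinins bear the load to the cytoskeleton. Leukocytes carry their own beta subunit (Itgb2), kindlin (Fermt3) and parvin (Parvg), and adherent epithelial cells use the widely expressed relatives. Rebastinib is directed at TIE2, the angiopoietin receptor.

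Library totals ran from 19025504 to 27070556 counts, and the members took 0.506 to 0.602% of the counts in ID8 rebastinib libraries, 0.763 to 0.823% in ID8 control libraries, 0.372 to 0.377% in PMJ2R rebastinib libraries and 0.387 to 0.396% in PMJ2R control libraries. Markers of the labelled cell types were in place. Of 15 ovarian and mesothelial markers, 14 reached 1 CPM (a count per 1000000 of the TMM-scaled library total, TMM being edgeR's scaling) in ID8 rebastinib cells and 15 in ID8 control cells, and none did in either PMJ2R group. Of 15 macrophage markers, 13 reached 1 CPM in PMJ2R rebastinib cells and 14 in PMJ2R control cells, and 4 did in each ID8 group, where their summed level was 35.2 to 40.5 CPM with rebastinib and 18.2 to 20.0 CPM in control libraries. Mitochondrially encoded genes took 4.54 to 4.91% of counts in ID8 rebastinib libraries and 2.80 to 3.02% in ID8 control libraries, and 5.10 to 5.41% in PMJ2R rebastinib libraries and 3.23 to 3.99% in PMJ2R control libraries. The share of 3 genes that overlap ribosomal RNA was 1.05 to 1.60% in ID8 rebastinib libraries and 0.106 to 0.355% in ID8 control libraries, and 5.63 to 5.99% in PMJ2R rebastinib libraries and 0.0927 to 0.172% in PMJ2R control libraries. The part of these shares in any rebastinib result below was not tested. The labels do not say whether the libraries of a group came from separate cultures, so each p-value measures only the spread between these libraries, which may be technical.

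The control cells of the lines used different members of the same families. Values after ± are the SD of the 3 libraries of a group for levels, and the standard error for log2 fold changes. Counting a member as detected at a mean of 1 CPM, 23 of the 42 were detected in the control cells of both lines, 6 in PMJ2R alone (Itga4, Itgal, Itgam, Itgb7, Parvb and Parvg), 7 in ID8 alone (Itga3, Itga7, Itgb8, Fermt2, Parva, Bcar1 and Sorbs3) and 6 in neither (Itga1, Itga2, Itga8, Itga9, Itgax and Fermt1). In PMJ2R control cells against ID8 control cells, 37 members were tested, 11 were higher and 21 were lower at an adjusted p under 0.05 with at least a 2-fold difference. Over all genes tested 43.7% met that rule, 18.1% higher in PMJ2R and 25.6% lower. The median log2 fold change was -1.41 for the members and -0.03 for all genes. Tln1, Ilk, Lims1, Ptk2 and Pxn met the p-value but not the 2-fold condition.

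**Figure D1:**
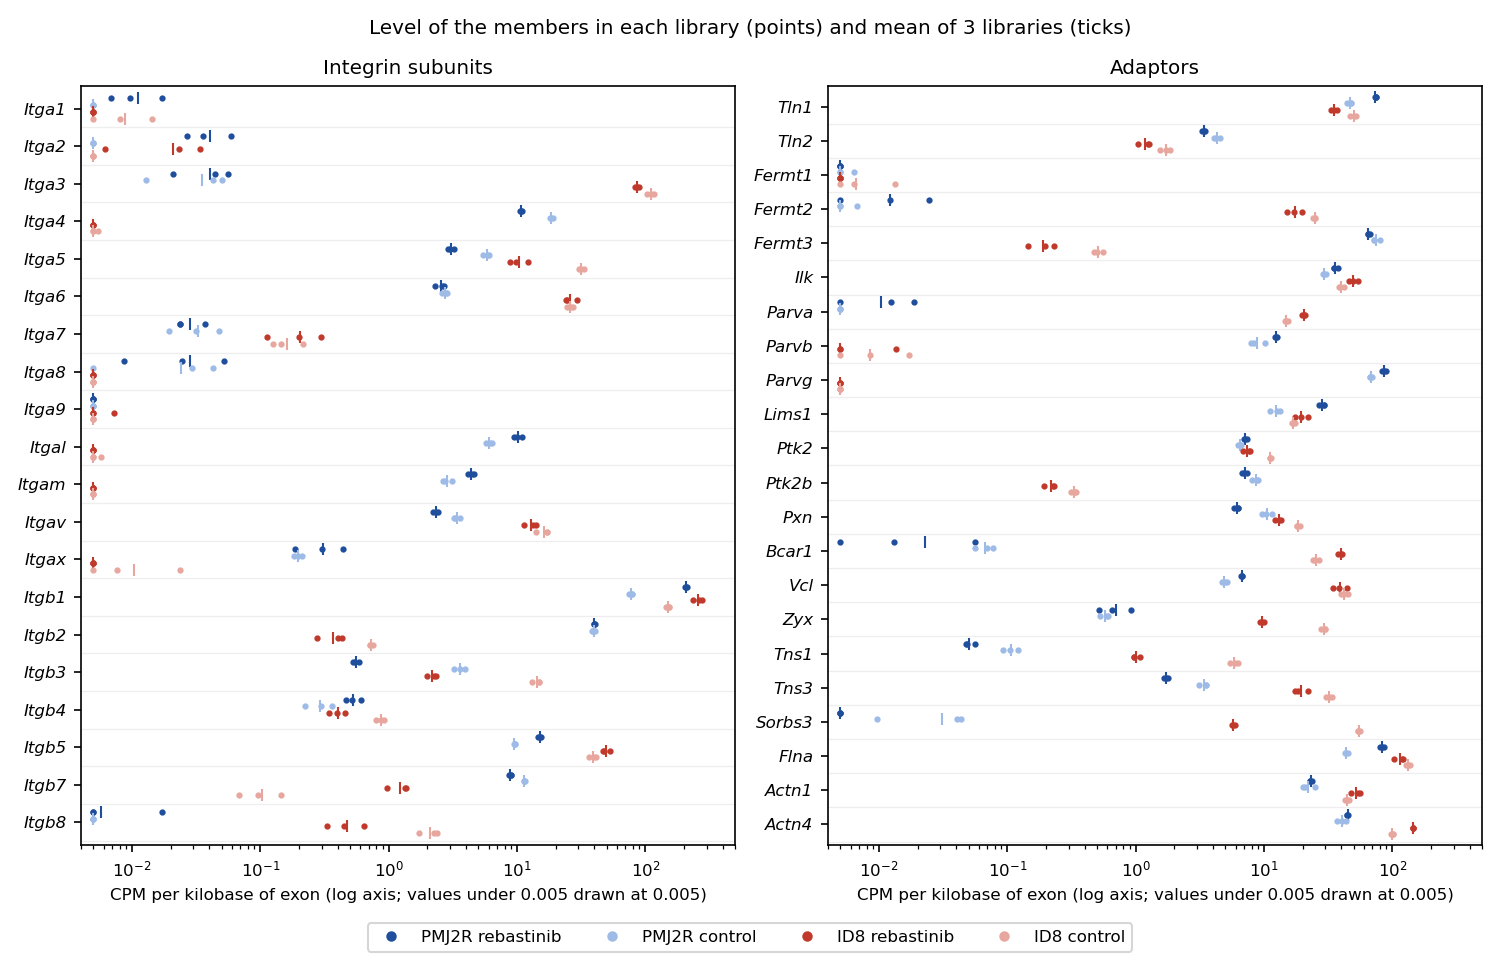
Level of each of the 42 members in the 12 libraries, as CPM per kilobase of exon on a log axis, for integrin subunits on the left and adaptors on the right. Points are libraries and ticks are group means. In control cells Parvg, Itga4 and Fermt3 stand far higher in PMJ2R, and Parva, Itga3 and Fermt2 far higher in ID8, while Itgb1 leads both lines.

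Among alpha subunits, Itga4, Itgal and Itgam were detected in PMJ2R control cells alone, Itga3 and Itga7 in ID8 control cells alone, and Itga5, Itga6 and Itgav in both. Itga4, whose product pairs with the beta subunits of Itgb1 or Itgb7 to bind VCAM1 and fibronectin, stood at 251, 257 and 267 CPM in PMJ2R control libraries and at 0, 0.0755 and 0 CPM in ID8 control libraries. Over the groups these were 22641 and 2 counts, a 10180-fold ratio per library total with a 95% counting interval of 2818 to 84065. The leukocyte subunits Itgal and Itgam, which pair with the product of Itgb2, were likewise found in PMJ2R. Itgal had 3512 counts in PMJ2R control cells and 1 in ID8 control cells (ratio 3158, interval 567 to 124778), and Itgam had 1251 and 0, at least 375-fold higher in PMJ2R when the floor of 3 counts is set in place of the 0 of the ID8 group. Of the Itgam exons, 68.7% are shared with the gene model Gm49368 on the same strand, so its count may be split between them. Itga3, the alpha subunit of a laminin receptor, showed the opposite pattern at 0.0728, 0.285 and 0.245 CPM in PMJ2R control libraries and 669.7, 629 and 589 CPM in ID8 control libraries (log2 fold change of -11.66 ± 0.144 SE, adjusted p = 1.18e-22). All ID8 control libraries lay above all PMJ2R control libraries by more than 3 orders of magnitude.

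The remaining alpha subunits were shared in part. The fibronectin receptor subunit Itga5 averaged 28.7 ± 1.63 CPM in PMJ2R control cells and 156 ± 6.13 CPM in ID8 control cells (log2 fold change of -2.55 ± 0.0657 SE, adjusted p = 3.4e-18). Itga6, of laminin receptors, averaged 24.6 ± 1.20 and 235 ± 12.7 CPM in the same order (log2 fold change of -3.36 ± 0.0691 SE, adjusted p = 8.46e-20), and Itgav, of vitronectin and other RGD receptors, 36.4 ± 1.98 and 173 ± 18.2 CPM (log2 fold change of -2.36 ± 0.0786 SE, adjusted p = 2.75e-16). All of these were lower in PMJ2R, with no overlap between the lines. Itga7, a laminin receptor subunit of muscle, was low in both lines, at 0.266 ± 0.114 CPM in PMJ2R control cells and 1.31 ± 0.377 CPM in ID8 control cells (log2 fold change of -2.41 ± 0.349 SE, adjusted p = 2.78e-06). Itgax, the alpha subunit commonly used as a dendritic cell marker, had 83 counts over the PMJ2R control libraries and 4 over the ID8 control libraries (log2 fold change 4.03, and 5.27 without ID8 control replicate 1). The collagen receptor subunits Itga1 and Itga2 and also Itga8 and Itga9 had at most 16 counts over any group. Itga2 had 8 counts in ID8 rebastinib cells and 14 in PMJ2R rebastinib cells, against 0 in ID8 control cells and 0 in PMJ2R control cells. Itga2 did not pass the filter and is in no count of calls here. Without the filter it was called higher with rebastinib in both lines (adjusted p = 0.000184 in PMJ2R and 0.00847 in ID8).

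Of the beta subunits, Itgb1, the common partner of most alpha subunits, was the most abundant member per length in every group. It averaged 77.4 ± 2.6 CPM per kilobase in PMJ2R control cells and 149.7 ± 4.62 CPM per kilobase in ID8 control cells. In PMJ2R control cells the level of Fermt3, 74.9 ± 4.31 CPM per kilobase, overlapped that of Itgb1. The difference between the lines in Itgb1 itself was close to the 2-fold condition (log2 fold change of -1.06 ± 0.0601 SE, adjusted p = 1.77e-12) and ended at a log2 fold change of -0.98 with library totals as the only scaling, which is under it.

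The leukocyte beta subunit Itgb2 had 118, 120.3 and 124 CPM in PMJ2R control libraries and 2.32, 2.19 and 2.18 CPM in ID8 control libraries (log2 fold change of 5.64 ± 0.0859 SE, adjusted p = 9.26e-22). Itgb7, the partner of Itga4 in gut homing, averaged 31.6 ± 0.35 CPM in PMJ2R control cells and 0.285 ± 0.107 CPM in ID8 control cells (log2 fold change of 6.66 ± 0.15 SE, adjusted p = 3.89e-19). Both stood higher in every PMJ2R control library than in any ID8 control library. Itgb3, the beta subunit of the vitronectin and platelet fibrinogen receptors, was lower in PMJ2R at 21.3 ± 2.15 CPM against 84.1 ± 6.44 CPM in ID8 (log2 fold change of -2.09 ± 0.0802 SE, adjusted p = 2.63e-15). The vitronectin receptor subunit Itgb5 was also lower in PMJ2R at 33.9 ± 0.449 CPM against 139.8 ± 8.51 CPM (log2 fold change of -2.15 ± 0.0637 SE, adjusted p = 3.42e-17). Itgb8, which with Itgav activates latent TGF-beta, had 1 count in PMJ2R control cells and 1877 in ID8 control cells, a ratio of 2087 in favour of ID8 with an interval of 374 to 82486. Itgb4, the hemidesmosome partner of Itga6, was low in both, at 2.05 ± 0.486 CPM in PMJ2R and 6.06 ± 0.454 CPM in ID8 (log2 fold change of -1.68 ± 0.162 SE, adjusted p = 8.6e-09). With trends on exon length and GC content removed, the Itgb4 difference was -0.93 and under the 2-fold condition.

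Kindlins and parvins were the families in which the lines exchanged 1 paralogue for another. Fermt3, the kindlin of blood cells, was at 420.1, 417 and 462 CPM in PMJ2R control libraries and at 3.23, 2.72 and 2.91 CPM in ID8 control libraries (log2 fold change of 7.08 ± 0.0897 SE, adjusted p = 1.24e-22). Fermt2, the widely expressed kindlin, was at 0, 0 and 0.035 CPM in PMJ2R control libraries and at 131, 129.7 and 126 CPM in ID8 control libraries. With 1 count against 10347, the ratio in favour of ID8 was 11506 with an interval of 2065 to 454510. Fermt1, the epithelial kindlin, had 1 count in PMJ2R control cells and 3 in ID8 control cells, so the kindlin transcript of the ID8 control cells was nearly all Fermt2.

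Parvg had 206, 207 and 215 CPM in PMJ2R control libraries and no count in any ID8 library, at least 5497-fold higher in PMJ2R. Parvb was at 36.7, 34.8 and 45.1 CPM in PMJ2R control libraries and at 0.0759, 0.0377 and 0 CPM in ID8 control libraries, a ratio of 1018 with an interval of 348 to 4940. Parva had no count in the PMJ2R control libraries and 156, 151 and 148 CPM in the ID8 control libraries, at least 4520-fold higher in ID8. Fitted log2 fold changes of members near 0 in 1 line rest on single libraries. Without ID8 control replicate 2 they were 15.79 for Itga4 (13 with all libraries) and 13.10 for Itgal (11.11), and without ID8 control replicate 1 10.62 for Parvb (9.76). Without PMJ2R control replicate 2 the value was -12.36 for Itgb8 (-10.62), and without PMJ2R control replicate 3 -14.86 for Fermt2 (-13.08). None of these changed direction. The genes Parvb and Parvg, detected in PMJ2R alone, are neighbours on chromosome 15, with 8337 bases between them. Their common partners were detected in both lines. Ilk averaged 81.0 ± 2.44 CPM in PMJ2R control cells and 109.7 ± 5.36 CPM in ID8 control cells, and Lims1 60.6 ± 5.60 and 82.4 ± 2.27 CPM in the same order. Of the Ilk exons, 76.8% are shared with Taf10 on the opposite strand. The strand setting of the counting is not given in the sources used here, so reads of Ilk and Taf10 cannot be told apart.

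For 6 members that differed widely between the control cells of the lines, the 250 bases before the RefSeq start are printed with CG dinucleotides in capitals (RefSeq table, build GRCm38.p6, sequence of the gene's own strand from 5′ to 3′). In Fermt2, Itga3 and Parvg the RefSeq start lies inside the GENCODE gene, so the window overlaps that gene. The Parvg window lies wholly inside its gene.
Fermt3, chr19:7019470-7019719, minus strand: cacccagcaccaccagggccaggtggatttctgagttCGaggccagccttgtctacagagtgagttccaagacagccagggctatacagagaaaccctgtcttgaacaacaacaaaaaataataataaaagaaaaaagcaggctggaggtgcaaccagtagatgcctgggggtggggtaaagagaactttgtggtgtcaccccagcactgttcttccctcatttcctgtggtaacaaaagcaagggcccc
Parvg, chr15:84324470-84324719, plus strand: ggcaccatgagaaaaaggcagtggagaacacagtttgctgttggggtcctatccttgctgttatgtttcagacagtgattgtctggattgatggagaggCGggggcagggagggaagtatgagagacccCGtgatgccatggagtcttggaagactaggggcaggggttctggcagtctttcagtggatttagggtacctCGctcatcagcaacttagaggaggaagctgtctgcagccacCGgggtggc
Parvb, chr15:84231793-84232042, plus strand: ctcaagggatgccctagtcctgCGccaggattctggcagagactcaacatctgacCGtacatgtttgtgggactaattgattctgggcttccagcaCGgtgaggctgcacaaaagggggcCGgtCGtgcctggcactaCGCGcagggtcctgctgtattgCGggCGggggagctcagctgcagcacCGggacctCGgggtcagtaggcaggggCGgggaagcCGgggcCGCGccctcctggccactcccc
Itga4, chr2:79255176-79255425, plus strand: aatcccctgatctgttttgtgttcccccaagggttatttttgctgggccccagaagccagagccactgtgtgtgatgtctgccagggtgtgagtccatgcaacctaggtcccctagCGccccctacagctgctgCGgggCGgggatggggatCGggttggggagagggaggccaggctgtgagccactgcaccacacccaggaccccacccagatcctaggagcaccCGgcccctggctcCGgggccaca
Fermt2, chr14:45530066-45530315, minus strand: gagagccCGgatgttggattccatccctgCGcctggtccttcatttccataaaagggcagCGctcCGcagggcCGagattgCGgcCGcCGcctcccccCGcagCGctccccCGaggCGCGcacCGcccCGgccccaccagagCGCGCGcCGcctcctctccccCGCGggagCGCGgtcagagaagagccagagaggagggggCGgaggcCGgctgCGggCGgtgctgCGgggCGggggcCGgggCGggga
Itga3, chr11:95076715-95076964, minus strand: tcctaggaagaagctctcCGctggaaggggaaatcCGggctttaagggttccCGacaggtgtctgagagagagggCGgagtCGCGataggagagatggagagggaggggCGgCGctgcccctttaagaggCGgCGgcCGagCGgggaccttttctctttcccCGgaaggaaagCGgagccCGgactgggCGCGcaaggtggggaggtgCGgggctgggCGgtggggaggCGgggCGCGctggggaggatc
The Fermt3 window held 1 CG and the Fermt2 window 31, and 18.8% and 95.4% of the 32851 windows in the table held as many or fewer. The windows of Parvg, Itga4, Parvb and Itga3 held 4, 6, 15 and 22. A window was given for 30 of the 42 members. The median number of CG was 6 in the 5 windows of members detected in PMJ2R alone (4 to 15) and 22 in the 4 windows of members detected in ID8 alone (12 to 31). It was 18 in the 15 windows of members detected in both (1 to 30), 10 in the 6 windows of members detected in neither (5 to 18), and 6 over all windows. Fermt3 counts here among the members detected in both, and Parva had no window. CG reads the same on both strands, and these numbers are a description with no test.

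The adaptors that link adhesions to actin were all higher in the ovarian line. All 8 tested members were lower in PMJ2R control cells than in ID8 control cells by the call rule, with a median log2 fold change of -3.29. Zyx, the LIM protein zyxin of focal adhesions and stress fibres, was at 3.20, 2.85 and 3.26 CPM in PMJ2R control libraries and 162, 149.6 and 161 CPM in ID8 control libraries (log2 fold change of -5.78 ± 0.0841 SE, adjusted p = 5.42e-22). Sorbs3, which encodes the vinculin-binding protein vinexin, was at 0.146, 0.158 and 0.035 CPM in PMJ2R control libraries and 204, 195 and 197 CPM in ID8 control libraries (log2 fold change of -10.82 ± 0.138 SE, adjusted p = 1.26e-22). No library of one line came near the other in either gene. Tns1 averaged 1.70 ± 0.218 CPM in PMJ2R control cells and 94.2 ± 6.89 CPM in ID8 control cells, and its fellow tensin Tns3 38.0 ± 2.79 and 359 ± 17.8 CPM in the same order. Vcl (vinculin) averaged 40.2 ± 1.71 and 347 ± 22.1 CPM in that order. Vinculin shares 25.5% of its exons with Ap3m1 on the opposite strand. The smallest differences of the group were in Actn1 (-1.12), Actn4 (-1.41) and Flna (-1.71, all log2 fold changes).

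Of the signalling members, Ptk2, Ptk2b and Pxn were detected in the control cells of both lines and Bcar1 in those of ID8 alone. Ptk2b was at 60.1, 65.5 and 65.9 CPM in PMJ2R control libraries and 2.47, 2.30 and 2.55 CPM in ID8 control libraries (log2 fold change of 4.60 ± 0.0909 SE, adjusted p = 4.54e-20). Bcar1, the Cas scaffold, was at 0.255, 0.316 and 0.35 CPM in PMJ2R control libraries and 123, 109 and 114 CPM in ID8 control libraries (log2 fold change of -8.64 ± 0.122 SE, adjusted p = 3.97e-22). The Pyk2 transcript was thus low in ID8 and the Cas transcript low in PMJ2R, and the lines did not overlap in either. Ptk2 and Pxn were present in both lines, at 76.2 ± 1.61 and 86.4 ± 7.42 CPM in PMJ2R control cells and 132 ± 0.676 and 152 ± 4.34 CPM in ID8 control cells. Of the talins, Tln1 averaged 458 ± 21.0 CPM in PMJ2R control cells and 489 ± 26.1 CPM in ID8 control cells (log2 fold change of -0.20 ± 0.0634 SE, adjusted p = 0.00635), and its sign turned to 0.42 with length and GC trends removed. Tln2 averaged 78.5 ± 4.05 CPM in PMJ2R control cells and 31.5 ± 2.91 CPM in ID8 control cells (log2 fold change of 1.21 ± 0.0738 SE, adjusted p = 6.05e-12).

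After rebastinib, the ovarian line held more Itgb1 RNA and far less RNA of Itgb3, Sorbs3, Tns1, Itga5 and Zyx relative to its other transcripts. Of 31 members tested in ID8, 9 rose, 19 fell and 3 were not called (Itga6, Itga7 and Vcl), at an adjusted p under 0.05 in edgeR's quasi-likelihood test with Benjamini-Hochberg adjustment. Over all genes tested 80.4% were called, 38.4% higher and 42% lower, so most transcripts moved in this comparison and a call by itself does not set a member apart. The median log2 fold change was -0.50 for the members and -0.07 for all genes. With library totals as the only scaling, which lowered the median of all genes by 0.43, 3 members rose and 21 fell, and with length and GC trends removed 11 rose and 12 fell. Of all 14829 genes tested, 3540 rose and 8471 fell with library totals only, and 6046 rose and 6098 fell with the trends removed. Where a call is said to hold under every alternative setting, this covers the settings in which the member was tested. In these whole-culture libraries fewer cells of a kind and less RNA per cell cannot be told apart.

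**Figure D2:**
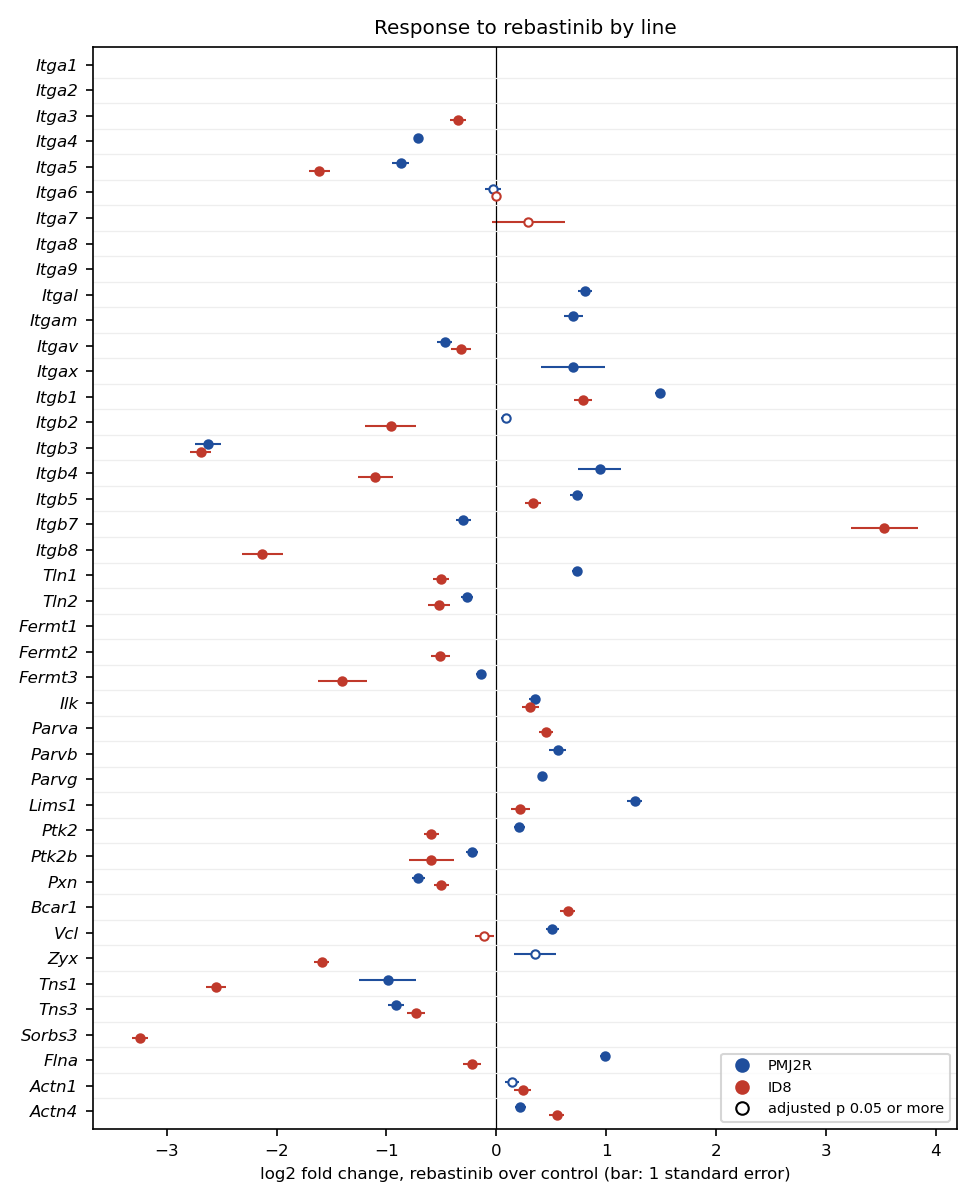
Log2 fold change of rebastinib over control for each tested member in PMJ2R (blue) and ID8 (red), with 1 standard error. Filled points had an adjusted p under 0.05 and open points did not. Itgb3 stands at -2.62 in PMJ2R and -2.69 in ID8, while Itgb7, Tln1, Flna, Zyx and Itgb4 stand apart between the lines.

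Among the beta subunits in ID8, 3 rose (Itgb1, Itgb5 and Itgb7) and 4 fell (Itgb2, Itgb3, Itgb4 and Itgb8), and Itgb5 turned to -0.11 with library totals only. Their median log2 fold change was -0.96, against -0.07 for all genes. Itgb1 was at 961, 1139 and 1063 CPM in ID8 rebastinib libraries, against 589, 620.3 and 624 CPM in ID8 control libraries (log2 fold change of 0.79 ± 0.0793 SE, adjusted p = 3.72e-07). All rebastinib libraries lay above all control libraries, and the change was called under every alternative setting. Itgb3 was at 13.2, 11.8 and 13.8 CPM with rebastinib, against 88.0, 87.8 and 76.7 CPM in control (log2 fold change of -2.69 ± 0.093 SE, adjusted p = 1.37e-11), a 6.46-fold lower level with a wide gap between the groups. Itgb8 was at 3.65, 4.98 and 7.08 CPM in ID8 rebastinib libraries, against 25.1, 26.2 and 18.9 CPM in ID8 control libraries (log2 fold change of -2.13 ± 0.186 SE, adjusted p = 8.54e-08). The groups did not overlap, although the third rebastinib library stood well above the first.

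The vitronectin receptor subunit Itgb5 was at 188, 166 and 170.0 CPM in ID8 rebastinib libraries and 143, 130.2 and 146 CPM in ID8 control libraries (log2 fold change of 0.33 ± 0.0733 SE, adjusted p = 0.000924). Each of its rebastinib libraries was above each control library. Itgb7 was at 3.76, 3.72 and 2.67 CPM in ID8 rebastinib libraries, against 0.266, 0.189 and 0.4 CPM in ID8 control libraries (log2 fold change of 3.53 ± 0.305 SE, adjusted p = 7.74e-08). This was the largest rise among the tested members in ID8, from a base of 23 counts over the control libraries, and the groups did not overlap. Itgb2 was at 1.33, 0.84 and 1.22 CPM with rebastinib, against 2.32, 2.19 and 2.18 CPM in control (log2 fold change of -0.96 ± 0.232 SE, adjusted p = 0.00163). Itgb4 was at 3.21, 2.40 and 2.80 CPM with rebastinib, against 6.49, 5.59 and 6.12 CPM in control (log2 fold change of -1.10 ± 0.16 SE, adjusted p = 1.76e-05). In both genes every rebastinib library was lower than every control library.

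No alpha subunit rose in ID8 by the test, and 3 of the 5 tested fell, with a median log2 fold change of -0.32 over the 5. Itga5, whose product forms the main fibronectin receptor with that of Itgb1, was at 48.7, 43.6 and 60.0 CPM in ID8 rebastinib libraries, against 163, 151 and 155 CPM in ID8 control libraries (log2 fold change of -1.61 ± 0.0986 SE, adjusted p = 2.44e-09). The highest rebastinib library stood well below the lowest control library. Itga3 was at 477, 511 and 491 CPM with rebastinib and 669.7, 629 and 589 CPM in control (log2 fold change of -0.35 ± 0.0727 SE, adjusted p = 0.000508), and Itgav averaged 138 ± 15 and 173 ± 18.2 CPM in the same order (log2 fold change of -0.32 ± 0.0928 SE, adjusted p = 0.00539). Neither of these was called once length and GC trends were removed, where the adjusted p was 0.978 for Itga3 and 0.465 for Itgav. Itga6 averaged 234 ± 26.3 CPM in ID8 rebastinib cells and 235 ± 12.7 CPM in ID8 control cells with an adjusted p of 0.979, and with length and GC trends removed it was called higher at 0.23. Itga7 averaged 1.64 ± 0.742 CPM with rebastinib and 1.31 ± 0.377 CPM in control, with overlapping libraries (adjusted p = 0.432).

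All 4 tested activators fell in ID8, with log2 fold changes of -1.40 to -0.50, and Tln2 turned to 0.02 with length and GC trends removed. Tln1 was at 326, 347 and 360.5 CPM in ID8 rebastinib libraries, against 512, 494 and 460.3 CPM in ID8 control libraries (log2 fold change of -0.50 ± 0.0715 SE, adjusted p = 1.54e-05). Tln2 was at 19.3, 23.2 and 22.9 CPM with rebastinib, against 31.8, 34.2 and 28.4 CPM in control (log2 fold change of -0.52 ± 0.101 SE, adjusted p = 0.000253). In both talins every rebastinib library was below every control library, and neither was called with length and GC trends removed (Tln1 -0.08). Fermt2 was at 78.7, 89.4 and 102 CPM with rebastinib, against 131, 129.7 and 126 CPM in control (log2 fold change of -0.51 ± 0.0858 SE, adjusted p = 7.13e-05). The low transcript of Fermt3 was at 1.33, 0.84 and 1.14 CPM in ID8 rebastinib libraries, against 3.23, 2.72 and 2.91 CPM in ID8 control libraries (log2 fold change of -1.40 ± 0.225 SE, adjusted p = 4.59e-05). Both kindlins separated the groups and were called under every alternative setting.

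The members of the integrin-linked kinase complex moved the other way by the main scaling. All 3 tested rose in ID8, but under library totals only Ilk turned to -0.12, Lims1 to -0.21 and Parva to 0.02. Parva was at 208, 214 and 199 CPM in ID8 rebastinib libraries, against 156, 151 and 148 CPM in ID8 control libraries (log2 fold change of 0.45 ± 0.0647 SE, adjusted p = 1.54e-05). All rebastinib libraries were above all control libraries. Ilk averaged 136 ± 10.3 CPM with rebastinib and 109.7 ± 5.36 CPM in control (log2 fold change of 0.31 ± 0.0744 SE, adjusted p = 0.00138). Lims1 was at 85, 95.3 and 107 CPM with rebastinib and 80.4, 84.8 and 82.0 CPM in control (log2 fold change of 0.22 ± 0.0832 SE, adjusted p = 0.024), and the lowest rebastinib library stood just above the highest control library. The Lims1 call was lost when only genes averaging 5 CPM or more were kept (adjusted p = 0.16), without ID8 control replicate 1 (adjusted p = 0.0942), ID8 control replicate 3 (0.0672) or ID8 rebastinib replicate 3 (0.0697).

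Of the signalling members in ID8, 1 rose and 3 fell. Bcar1 was at 182, 171 and 186 CPM in ID8 rebastinib libraries, against 123, 109 and 114 CPM in ID8 control libraries (log2 fold change of 0.65 ± 0.0706 SE, adjusted p = 9.38e-07). Ptk2 was at 80.4, 90.2 and 91.9 CPM with rebastinib, against 132, 132 and 133 CPM in control (log2 fold change of -0.59 ± 0.0711 SE, adjusted p = 2.68e-06). The groups separated in both genes, in opposite directions, and both calls held under every alternative setting. Pxn was at 108, 99.5 and 112 CPM in ID8 rebastinib libraries, against 156, 149 and 149 CPM in ID8 control libraries (log2 fold change of -0.50 ± 0.0689 SE, adjusted p = 9.62e-06). The low transcript of Ptk2b was at 1.44, 1.68 and 1.70 CPM with rebastinib, against 2.47, 2.30 and 2.55 CPM in control (log2 fold change of -0.59 ± 0.202 SE, adjusted p = 0.0147). Neither Pxn (-0.09) nor Ptk2b (-0.25) was called with length and GC trends removed, and DESeq2 did not call Ptk2b (adjusted p = 0.0579).

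The proteins that link adhesions to actin split in ID8 into 5 that fell, 2 that rose and 1 that was not called, with a median log2 fold change of -0.47. Sorbs3 was at 20.5, 21.4 and 21.0 CPM in ID8 rebastinib libraries, against 204, 195 and 197 CPM in ID8 control libraries (log2 fold change of -3.24 ± 0.073 SE, adjusted p = 5.51e-13). This was a 9.43-fold lower level, the largest fall among the tested members, and the libraries of each group lay close together. Sorbs3 shares 2.31% of its exons with the antisense gene Gm49417. Tns1 was at 15.6, 17.2 and 15.4 CPM with rebastinib, against 101, 94.9 and 87.0 CPM in control (log2 fold change of -2.55 ± 0.0873 SE, adjusted p = 1.31e-11). Tns3 was at 196, 206 and 246 CPM with rebastinib, against 377, 359 and 342 CPM in control (log2 fold change of -0.73 ± 0.0854 SE, adjusted p = 1.97e-06). Zyx was at 54.0, 52.3 and 50.6 CPM with rebastinib, against 162, 149.6 and 161 CPM in control (log2 fold change of -1.59 ± 0.0704 SE, adjusted p = 1.19e-10). All 4 of these genes separated the groups, and their calls held under every alternative setting.

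The actin cross-linkers moved less. Actn4 was at 883, 893 and 889 CPM in ID8 rebastinib libraries, against 615, 594 and 620.1 CPM in ID8 control libraries (log2 fold change of 0.55 ± 0.0677 SE, adjusted p = 3.37e-06). Actn1 was at 262, 299 and 308 CPM with rebastinib, against 255, 248 and 236 CPM in control (log2 fold change of 0.24 ± 0.0746 SE, adjusted p = 0.009). Both alpha-actinins were higher in every rebastinib library, and with library totals only Actn4 was 0.11 and Actn1 turned to -0.19. The Actn1 call was also lost when only genes averaging 5 CPM or more were kept (0.15, adjusted p = 0.0791). Flna, the filamin that joins actin filaments to integrin tails, was at 961, 1111 and 1139 CPM with rebastinib, against 1290.1, 1254 and 1196 CPM in control (log2 fold change of -0.22 ± 0.0819 SE, adjusted p = 0.0258). The Flna call was lost with replicate number as a block (adjusted p = 0.0844), with relative log expression size factors (log2 fold change -0.17, adjusted p = 0.0659), and without ID8 control replicate 1 (adjusted p = 0.0897), ID8 rebastinib replicate 1 (0.0985), ID8 control replicate 2 (0.0728) or ID8 rebastinib replicate 2 (0.0580). With length and GC trends removed Flna was called higher, at 0.18 (adjusted p = 0.0296). Vcl averaged 320.0 ± 39.7 CPM with rebastinib and 347 ± 22.1 CPM in control, with overlapping libraries (adjusted p = 0.248), and was called lower at -0.19 without ID8 rebastinib replicate 3 (adjusted p = 0.0237).

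In the macrophage line Itgb1 RNA was also higher after rebastinib, together with that of Flna, Lims1, Tln1 and Itgal, while RNA of Itgb3, Itga4, Tns3, Pxn and Itga5 was lower. Of 30 members tested in PMJ2R, 15 rose, 11 fell and 4 were not called (Itga6, Itgb2, Zyx and Actn1). Over all genes tested 83.7% were called, 40.3% higher and 43.3% lower. The median log2 fold change was 0.22 for the members and -0.04 for all genes. With library totals as the only scaling, which lowered the median of all genes by 0.56, 6 members rose and 18 fell, and with length and GC trends removed 20 rose and 6 fell. Of all 14010 genes tested, 3103 rose and 8676 fell with library totals only, and 5634 rose and 5964 fell with the trends removed.

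Among the beta subunits of PMJ2R, 3 rose (Itgb1, Itgb4 and Itgb5), 2 fell (Itgb3 and Itgb7) and Itgb2 was not called. Itgb1 was at 856, 836 and 853 CPM in PMJ2R rebastinib libraries, against 322, 322 and 304 CPM in PMJ2R control libraries (log2 fold change of 1.49 ± 0.0463 SE, adjusted p = 3.1e-15). This was the largest rise among the tested members of PMJ2R, with close libraries and a wide gap between the groups. Itgb3 was at 3.49, 3.12 and 3.24 CPM with rebastinib, against 19.1, 21.3 and 23.4 CPM in control (log2 fold change of -2.62 ± 0.118 SE, adjusted p = 3.79e-13), the largest fall in PMJ2R and 6.16-fold. Itgb5 was at 52.2, 53.3 and 54.9 CPM with rebastinib, against 34.0, 33.4 and 34.3 CPM in control (log2 fold change of 0.73 ± 0.0573 SE, adjusted p = 1.13e-09). None of these groups overlapped.

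Itgb7 was at 23.8, 24.8 and 24.7 CPM in PMJ2R rebastinib libraries, against 32.0, 31.3 and 31.6 CPM in PMJ2R control libraries (log2 fold change of -0.30 ± 0.0668 SE, adjusted p = 0.000423). It was not called with length and GC trends removed (-0.03). The low transcript of Itgb4 was at 3.24, 3.66 and 4.26 CPM with rebastinib, against 2.07, 1.55 and 2.52 CPM in control (log2 fold change of 0.94 ± 0.197 SE, adjusted p = 0.000269). The groups of Itgb7 and of Itgb4 did not overlap. Itgb2, the leukocyte beta subunit, was at 124, 122 and 121 CPM with rebastinib and 118, 120.3 and 124 CPM in control, with overlapping libraries and an adjusted p of 0.077. The direction of Itgb2 followed the setting, called higher by DESeq2 (0.12, adjusted p = 0.0325), with relative log expression size factors (0.12, adjusted p = 0.0185) and with length and GC trends removed (0.30). With library totals only Itgb2 was called lower, at -0.48 (adjusted p = 1.69e-08), and it was -0.12 with no filter. Itgb8 had 3 counts over the rebastinib libraries and 1 over the control libraries and was not tested.

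Of 7 alpha subunits tested in PMJ2R, 3 rose (Itgal, Itgam and Itgax, which pair with Itgb2) and 3 fell (Itga4, Itga5 and Itgav, which bind fibronectin, VCAM1 or vitronectin), with a median log2 fold change of -0.03. Itgal was at 72.1, 62.6 and 65.9 CPM in PMJ2R rebastinib libraries, against 37.8, 40.3 and 42 CPM in PMJ2R control libraries (log2 fold change of 0.81 ± 0.0635 SE, adjusted p = 1.09e-09). Itga4 was at 153, 149 and 151 CPM with rebastinib, against 251, 257 and 267 CPM in control (log2 fold change of -0.71 ± 0.0434 SE, adjusted p = 3.08e-11). Itga5 was at 14.9, 15.8 and 14.3 CPM with rebastinib, against 26.9, 29.1 and 30.1 CPM in control (log2 fold change of -0.87 ± 0.0785 SE, adjusted p = 7.95e-09). The groups of all 3 genes stood apart, and their calls held under every alternative setting. Itgam averaged 22.1 ± 1.12 CPM with rebastinib and 14.3 ± 1.21 CPM in control (log2 fold change of 0.70 ± 0.0849 SE, adjusted p = 4.81e-07), and was not called with library totals only (0.13). Itgav averaged 25.0 ± 1.11 CPM with rebastinib and 36.4 ± 1.98 CPM in control (log2 fold change of -0.47 ± 0.0705 SE, adjusted p = 6.36e-06). Itgax, at 0.889, 1.44 and 2.10 CPM with rebastinib and 1.02, 0.886 and 0.946 CPM in control, overlapped between the groups (log2 fold change of 0.70 ± 0.293 SE, adjusted p = 0.034). Its call was lost with DESeq2 (adjusted p = 0.0638), limma-voom (0.0607) and no filter (0.172), without PMJ2R control replicate 1 (adjusted p = 0.0543) or 2 (0.0897) and without PMJ2R rebastinib replicate 2 (0.0677) or 3 (0.286). Itga6 averaged 23.0 ± 1.82 and 24.6 ± 1.20 CPM in the same order (adjusted p = 0.689).

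All 4 tested members of the integrin-linked kinase complex rose in PMJ2R by the main scaling. With library totals only, Ilk (-0.21, adjusted p = 0.00081) and Parvg (-0.15, adjusted p = 0.00451) were called lower, and Parvb (-0.01) was not called. Lims1 was at 143, 131 and 142 CPM in PMJ2R rebastinib libraries, against 61.7, 65.5 and 54.5 CPM in PMJ2R control libraries (log2 fold change of 1.26 ± 0.0666 SE, adjusted p = 1.1e-11). The gap between the groups was several times the spread within them, and the call held under every alternative setting. Parvg was at 276, 266 and 259 CPM with rebastinib, against 206, 207 and 215 CPM in control (log2 fold change of 0.42 ± 0.0442 SE, adjusted p = 6.66e-08). Parvb was at 55.7, 54.5 and 53.4 CPM with rebastinib, against 36.7, 34.8 and 45.1 CPM in control (log2 fold change of 0.56 ± 0.0772 SE, adjusted p = 2.97e-06). Neither parvin overlapped between the groups. Ilk averaged 98.6 ± 3.58 CPM with rebastinib and 81.0 ± 2.44 CPM in control (log2 fold change of 0.35 ± 0.0492 SE, adjusted p = 2.72e-06).

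Of the activators in PMJ2R, Tln1 was at 727, 732 and 716 CPM with rebastinib, against 434, 471 and 469.9 CPM in control (log2 fold change of 0.73 ± 0.0444 SE, adjusted p = 2.59e-11). Tln2 was at 62.7, 63.6 and 60.2 CPM with rebastinib, against 75.2, 83.0 and 77.4 CPM in control (log2 fold change of -0.27 ± 0.0556 SE, adjusted p = 0.000232). The talins thus moved in opposite directions with no overlap in either, and Tln2 turned to 0.08 with length and GC trends removed. Fermt3 was at 385, 371 and 371 CPM with rebastinib, against 420.1, 417 and 462 CPM in control (log2 fold change of -0.14 ± 0.046 SE, adjusted p = 0.0115). The small fall of Fermt3 was lost with DESeq2 (-0.10, adjusted p = 0.0615) and without PMJ2R rebastinib replicate 2 (adjusted p = 0.0723) or 3 (0.0690). With length and GC trends removed Fermt3 was called higher, at 0.35 (adjusted p = 3.48e-08).

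Among the signalling members, Pxn was at 47.5, 51.2 and 51.8 CPM in PMJ2R rebastinib libraries, against 79.7, 85.1 and 94.4 CPM in PMJ2R control libraries (log2 fold change of -0.71 ± 0.0612 SE, adjusted p = 3.74e-09). Ptk2 was at 82.3, 86.7 and 83.4 CPM with rebastinib, against 76.1, 77.9 and 74.7 CPM in control (log2 fold change of 0.21 ± 0.0505 SE, adjusted p = 0.000898). With library totals only Ptk2 was called lower, at -0.35 (adjusted p = 5.05e-06). Ptk2b was at 49.9, 55.0 and 52.1 CPM with rebastinib, against 60.1, 65.5 and 65.9 CPM in control (log2 fold change of -0.22 ± 0.0576 SE, adjusted p = 0.00203). With length and GC trends removed Ptk2b was called higher, at 0.13 (adjusted p = 0.0258). The groups of the 3 genes did not overlap, and of them the Pxn call alone held under every alternative setting. Bcar1 had 5 counts over the rebastinib libraries and 27 over the control libraries and was not tested in PMJ2R.

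Filamin led the actin-linking members in PMJ2R, where 3 rose (Flna, Vcl and Actn4), 2 fell (Tns1 and Tns3) and 2 were not called, with a median log2 fold change of 0.22. Flna was at 807, 784 and 751 CPM in PMJ2R rebastinib libraries, against 399.8, 425 and 412 CPM in PMJ2R control libraries (log2 fold change of 0.99 ± 0.0462 SE, adjusted p = 6.13e-13). Tns3 was at 19.2, 18.7 and 19.8 CPM with rebastinib, against 34.8, 39.7 and 39.6 CPM in control (log2 fold change of -0.91 ± 0.0736 SE, adjusted p = 1.57e-09). Both separated the groups by a wide margin and were called under every alternative setting. Vcl averaged 54.8 ± 0.819 CPM with rebastinib and 40.2 ± 1.71 CPM in control (log2 fold change of 0.51 ± 0.0565 SE, adjusted p = 1.24e-07), and was -0.05 with library totals only. Its libraries did not overlap between the groups. Actn4 was at 274, 279 and 273 CPM with rebastinib, against 227, 247 and 268 CPM in control (log2 fold change of 0.22 ± 0.0504 SE, adjusted p = 0.000537), with the lowest rebastinib library just above the highest control library. With library totals only Actn4 was called lower, at -0.34 (adjusted p = 3.5e-06), and it was 0.01 with no filter. Tns1 was at 0.762, 0.78 and 0.89 CPM with rebastinib, against 1.49, 1.68 and 1.93 CPM in control (log2 fold change of -0.99 ± 0.257 SE, adjusted p = 0.00165), and was not called with length and GC trends removed (-0.53). Both tensins were thus lower, and Actn1 and Zyx did not separate the groups. Sorbs3 had 0 counts over the rebastinib libraries and 10 over the control libraries and was not tested in PMJ2R. Actn1, at 126, 126 and 132 CPM with rebastinib and 111, 116 and 139 CPM in control, overlapped (adjusted p = 0.0569), and it was called higher by DESeq2 and with relative log expression size factors (0.17 each), with the replicate block (0.14, adjusted p = 0.0204) and without PMJ2R control replicate 3 (0.21), with -0.08 for no filter. Zyx, at 4.95, 3.54 and 2.80 CPM with rebastinib and 3.20, 2.85 and 3.26 CPM in control, also overlapped (adjusted p = 0.0943), and without PMJ2R rebastinib replicate 3 it was called higher at 0.53.

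**Figure D3:**
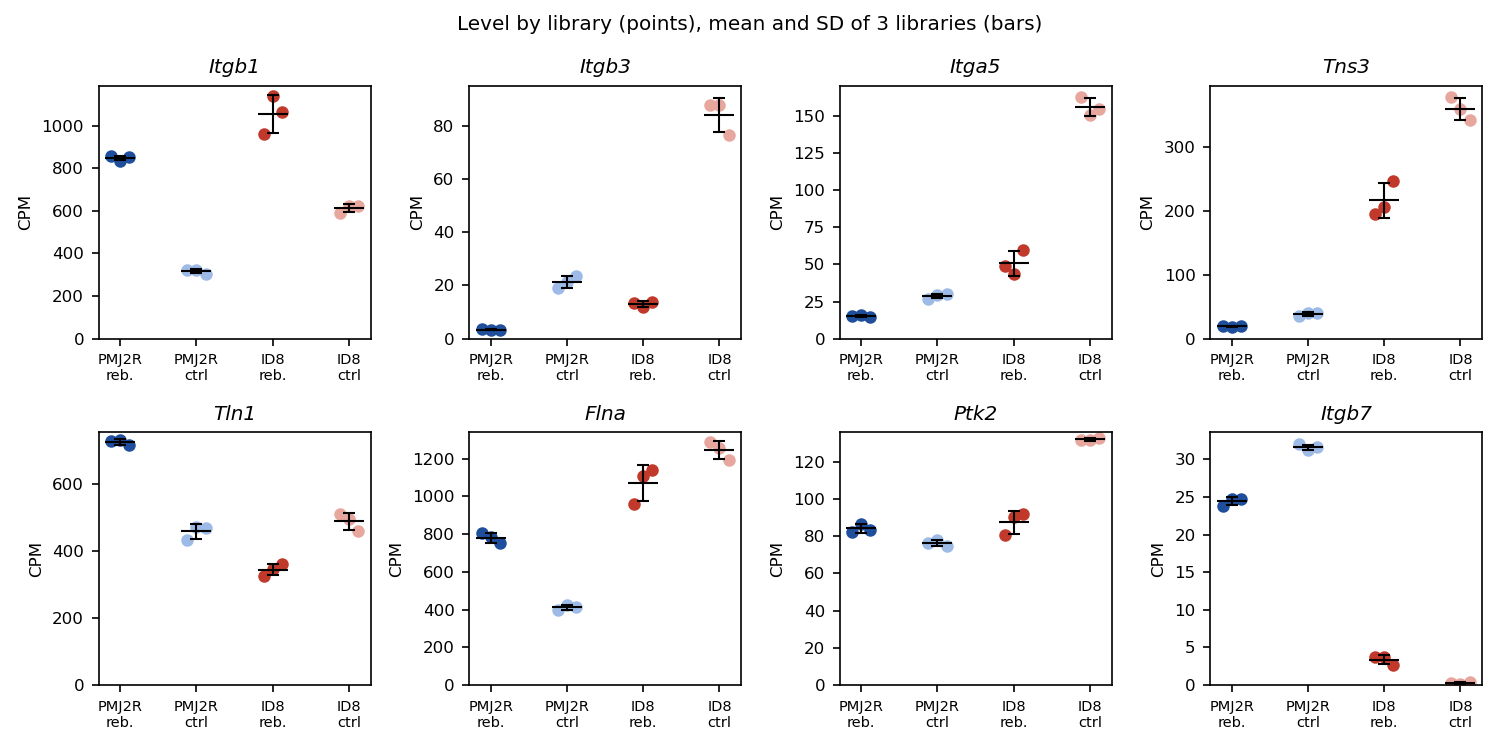
CPM of 8 members in each library (points), with the mean and SD of 3 libraries (bars), for rebastinib and control cells of PMJ2R and then ID8; each vertical axis starts at 0. Itgb1 is higher and Itgb3, Itga5 and Tns3 are lower with rebastinib in both lines, while Tln1, Flna and Ptk2 are higher with rebastinib in PMJ2R and lower in ID8 and Itgb7 the reverse. Flna in ID8 takes the other sign with length and GC trends removed (0.18), as does Ptk2 in PMJ2R with library totals only (-0.35). Both are called in that other direction.

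Setting the lines side by side, 24 members were tested in both, and their responses shared no control library. Of these, 14 were called in both lines in the same direction, 58.3% against 60.1% of the 12398 genes tested in both lines. Those were higher for Itgb1, Itgb5, Ilk, Lims1 and Actn4 and lower for Itga5, Itgav, Itgb3, Tln2, Fermt3, Ptk2b, Pxn, Tns1 and Tns3. Of these, Itgb5, Ilk and Lims1 in ID8 and Ilk and Actn4 in PMJ2R changed sign with library totals only, and Tln2 in both lines and Fermt3 and Ptk2b in PMJ2R with length and GC trends removed. In those settings Ilk and Actn4 in PMJ2R were called lower, and Fermt3 and Ptk2b in PMJ2R were called higher. Another 5 were called in opposite directions, 20.8% against 9.88% of all genes. These were Tln1, Flna, Ptk2 and Itgb4, higher in PMJ2R and lower in ID8, and Itgb7, lower in PMJ2R and higher in ID8. None of the 5 pairs of calls held in every setting. Flna in ID8 was 0.18, Tln1 in ID8 -0.08 and Itgb7 in PMJ2R -0.03 with length and GC trends removed, and Ptk2 in PMJ2R was -0.35 and Itgb4 in PMJ2R 0.37 with library totals only, where the Tln1, Itgb7 and Itgb4 values were not called.

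The difference itself was tested as an interaction in 1 fit over the 12 libraries, whose scaling and filter are its own, so its value need not equal the gap between the fold changes of the lines' own fits. Among the 24 members tested in both lines, 13 responded more positively in PMJ2R, 3 less positively and 8 were not called, and over all genes tested in both lines 62.7% were called, 23.7% higher in PMJ2R and 39.0% lower. Of all 37 members this fit tested, 14 were called higher and 4 lower, where 52.4% of all genes were called, and with length and GC trends removed 14 were higher and 7 lower. Of all 16566 genes in this fit, 3618 were higher and 5066 lower, and 3474 and 5204 with the trends removed. The median difference over the 24 members was 0.45 on the log2 scale, against -0.19 for all genes tested in both lines. Tln1 changed by 0.73 in PMJ2R and -0.50 in ID8 (difference 1.17 ± 0.0863 SE, adjusted p = 1.01e-10). Flna changed by 0.99 in PMJ2R and -0.22 in ID8 (difference 1.14 ± 0.0937 SE, adjusted p = 5.46e-10). These 2 proteins, talin and filamin, both bind the cytoplasmic tail of beta integrins. Zyx was not called in PMJ2R (0.35) and changed by -1.59 in ID8 (difference 1.87 ± 0.18 SE, adjusted p = 6.43e-09), and Itgb4 changed by 0.94 in PMJ2R and -1.10 in ID8 (difference 1.97 ± 0.26 SE, adjusted p = 8.38e-07).

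Lims1 rose in both lines, by 1.26 in PMJ2R and 0.22 in ID8 (difference 0.98 ± 0.111 SE, adjusted p = 9.12e-08), and so did Itgb1, by 1.49 in PMJ2R and 0.79 in ID8 (difference 0.64 ± 0.0897 SE, adjusted p = 2.16e-06). Both were thus more positive in PMJ2R. Ptk2 changed by 0.21 in PMJ2R and -0.59 in ID8 (difference 0.74 ± 0.0879 SE, adjusted p = 2e-07). Tns1 (difference 1.49 ± 0.275 SE, adjusted p = 7.07e-05), Fermt3 (difference 1.20 ± 0.182 SE, adjusted p = 5.85e-06) and Itga5 (difference 0.68 ± 0.132 SE, adjusted p = 0.000131) fell less in PMJ2R than in ID8 by the main fits. Fermt3 in ID8 had only 64 counts with rebastinib and 237 in control, and Tns1 in PMJ2R only 39 and 149. With length and GC trends removed Fermt3 was called higher in PMJ2R, at 0.35. Itgb2 (1 of the members not called in PMJ2R) differed by 0.98, Vcl by 0.56 and Itgb5 by 0.34. The 3 members that were less positive in PMJ2R were Itgb7 (difference -3.89 ± 0.261 SE, adjusted p = 2e-11), Actn4 (difference -0.39 ± 0.0862 SE, adjusted p = 0.000521) and Pxn (difference -0.28 ± 0.0984 SE, adjusted p = 0.022), and the Pxn call was lost with DESeq2 (-0.15, adjusted p = 0.192), with relative log expression size factors (-0.15, 0.194), when only genes averaging 5 CPM or more were kept (-0.20, 0.0827), and without PMJ2R rebastinib replicate 1 (adjusted p = 0.0656) or PMJ2R control replicate 3 (0.0505).

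The large fall of Itgb3 was alike in the lines, at -2.62 in PMJ2R and -2.69 in ID8. The fitted difference was 0.00, and leaving out 1 library at a time gave -0.08 to 0.06. Ilk, at 0.35 in PMJ2R and 0.31 in ID8, differed by -0.02 ± 0.0925 SE. A p-value above the threshold does not show that these responses are equal. Parva and Bcar1 were also called in the interaction, but PMJ2R held 5 counts of Parva with rebastinib and 0 in control, and 5 and 27 counts of Bcar1, so their fitted differences are not given.

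**Figure D4:**
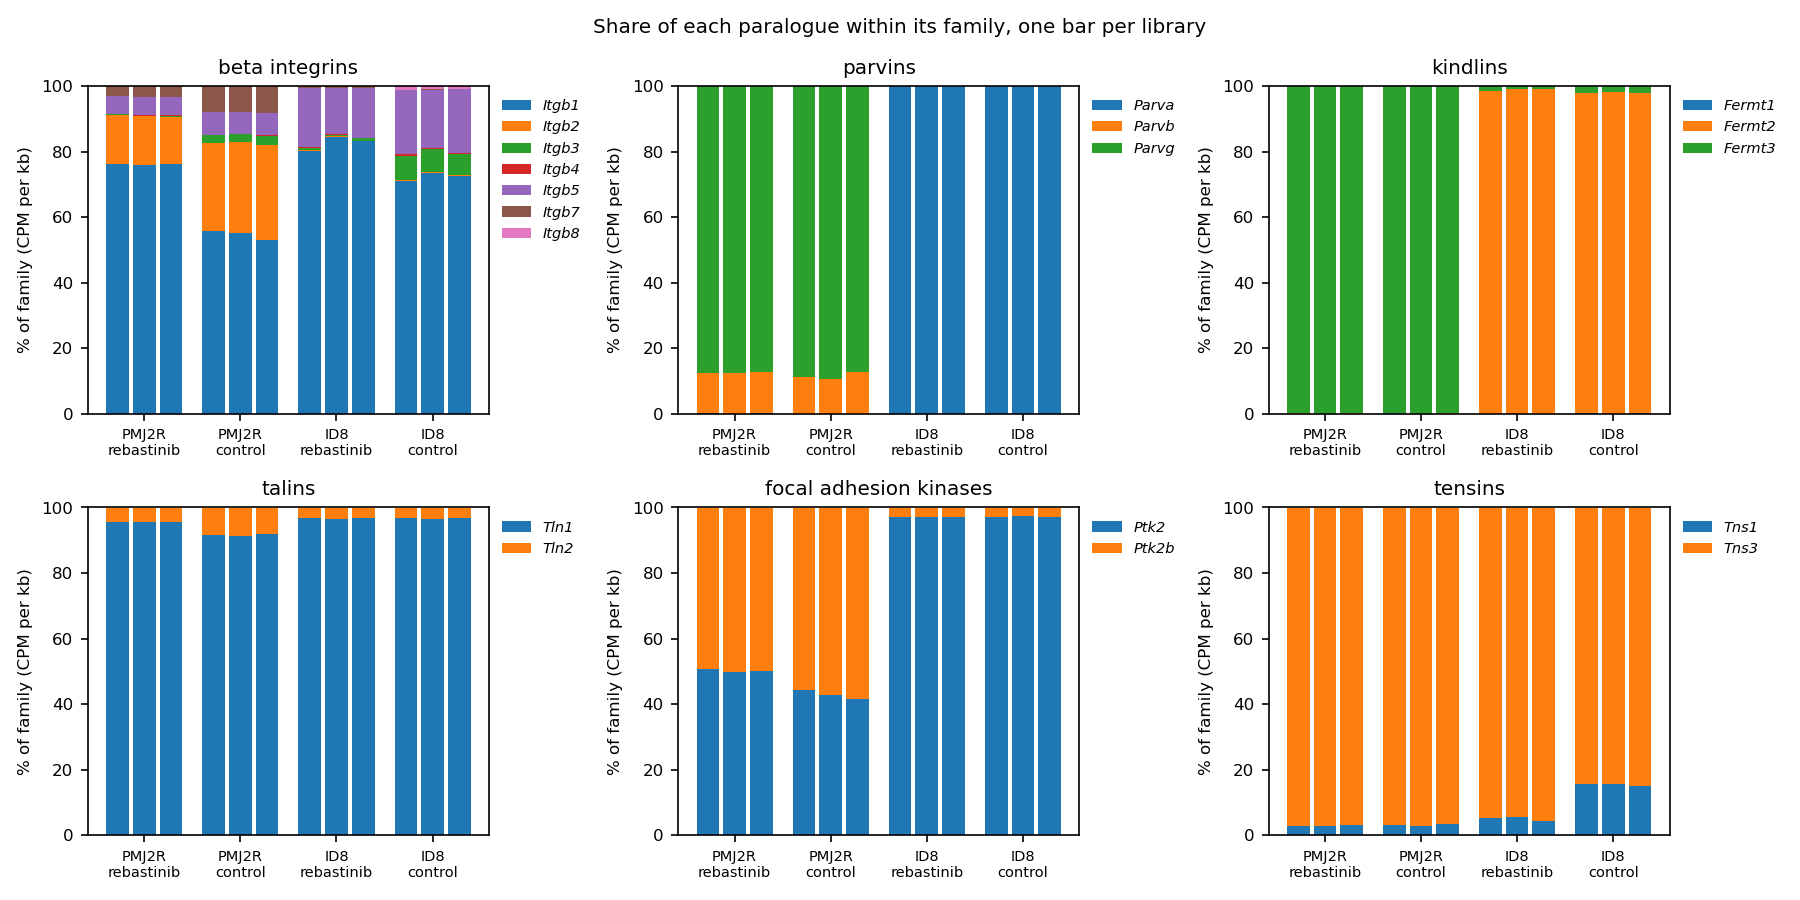
Share of each paralogue in its family, from CPM per kilobase, as 1 stacked bar for each library of PMJ2R and then ID8. Parvins and kindlins change between the lines and hardly with rebastinib, while the Itgb1 share of the beta subunits is larger with rebastinib in both lines.

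Shares within a family do not depend on the scaling of a library, since all paralogues of a library share it. The shares were not recomputed with length and GC trends removed, which can differ between paralogues. Itgb1 took 76.3, 75.9 and 76.2% of the summed beta subunit level per kilobase in PMJ2R rebastinib libraries, against 55.6, 55.2 and 53.0% in PMJ2R control libraries, a mean of 76.2% ± 0.22 against 54.6% ± 1.37 (SD, n = 3). In ID8 it took 80.3, 84.5 and 83.2% with rebastinib, against 71.0, 73.3 and 72.6% in control, a mean of 82.7% ± 2.13 against 72.3% ± 1.19. In both lines every rebastinib library held a larger share. A permutation of the 3 and 3 libraries, exact and two-sided, gave p = 0.1 in each line and cannot go lower. Within this mix Itgb2 made up 14.7% ± 0.208 in PMJ2R rebastinib cells and 27.9% ± 0.923 in PMJ2R control cells, although its own level was not called changed. Itgb3 made up 0.204% ± 0.0102 in PMJ2R rebastinib cells and 2.54% ± 0.275 in PMJ2R control cells, and 0.705% ± 0.0885 in ID8 rebastinib cells and 6.89% ± 0.623 in ID8 control cells. Those groups did not overlap either (exact p = 0.1 in each).

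Among the other families the tensin mix of ID8 also separated the groups. Tns1 made up 4.99% ± 0.71 of the tensins in ID8 rebastinib cells and 15.5% ± 0.322 in ID8 control cells (exact p = 0.1). Parvg made up 87.5% ± 0.118 of the parvins in PMJ2R rebastinib cells and 88.5% ± 1.21 in PMJ2R control cells, with overlapping libraries (exact p = 0.4). Fermt2 made up 98.9% ± 0.343 of the kindlins in ID8 rebastinib cells and 98.0% ± 0.185 in ID8 control cells, without overlap (exact p = 0.1). Tln1 made up 95.6% ± 0.0707 of the talins in PMJ2R rebastinib cells and 91.6% ± 0.271 in PMJ2R control cells (exact p = 0.1), and 96.7% ± 0.192 and 96.7% ± 0.211 in ID8 in the same order, with overlap (exact p = 0.7). The talin mix thus separated the groups in PMJ2R and overlapped in ID8. Ptk2 made up 50.2% ± 0.575 of the focal adhesion kinases in PMJ2R rebastinib cells and 42.8% ± 1.37 in PMJ2R control cells (exact p = 0.1), against 97.2% ± 0.0606 and 97.1% ± 0.13 in ID8 rebastinib and control cells (exact p = 0.8). The log2 fold changes of Ptk2 and Ptk2b in PMJ2R were 0.21 and -0.22 by the main fit. With length and GC trends removed they were 0.28 and 0.13, and thus closer together. Actn4 made up 73.5% ± 1.57 of the alpha-actinins in ID8 rebastinib cells and 69.1% ± 1.11 in ID8 control cells (exact p = 0.1). In PMJ2R the tensin and alpha-actinin mixes overlapped between rebastinib and control libraries.

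**Figure D5:**
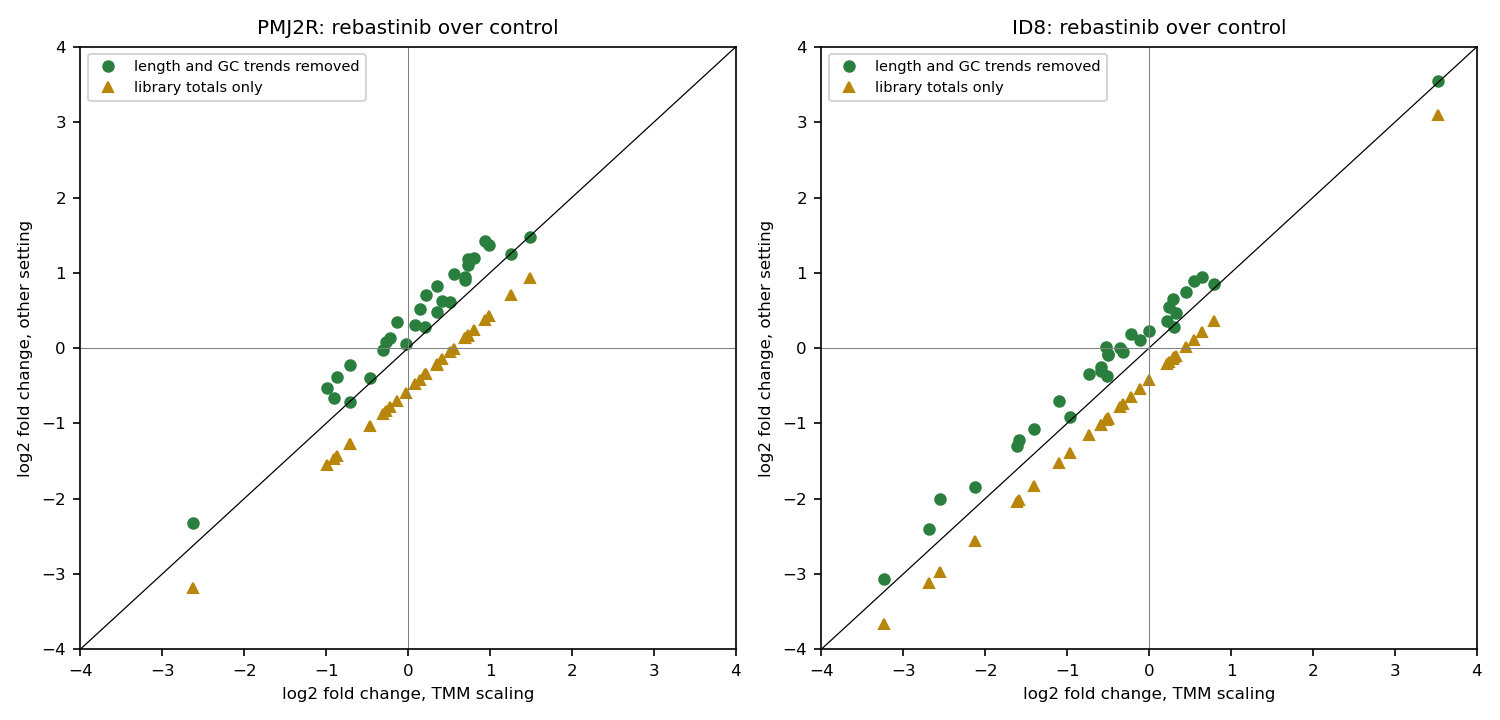
Log2 fold change of rebastinib over control for each tested member under library totals only (triangles) and with length and GC trends removed (circles), against the same value under TMM scaling, for PMJ2R and ID8. Library totals shift the members down together, and removing the trends moves many up, so that members near 0 change sign while Itgb1 stays above 0 and Itgb3 below 0 in each line.

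The members had long transcripts, with a median exon length of 6127 bases among those tested in ID8 and 6014 in PMJ2R, against 3859 and 3750 bases for all genes tested in those lines.  Spearman's correlation of exon length with the log2 fold change was -0.35 over the 30 members tested in PMJ2R and -0.15 over all genes there, and -0.27 over the 31 members tested in ID8 and -0.24 over all genes there. These are descriptions across genes that share their libraries.  Beside the exon overlaps given above, no member in the text shared more than 12.9% of its exons with another gene (Ilk with Rrp8, on the opposite strand).

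Called with the same sign under every alternative setting were Itgb1, Itgb7 and Bcar1 among the rises in ID8, and Itga5, Itgb2, Itgb3, Itgb4, Itgb8, Fermt2, Fermt3, Ptk2, Zyx, Tns1, Tns3 and Sorbs3 among the falls. In PMJ2R these were Itgal, Itgb1, Itgb5, Tln1, Lims1 and Flna among the rises, and Itga4, Itga5, Itgav, Itgb3, Pxn and Tns3 among the falls. Itgb1 was the only rise, and Itga5, Itgb3 and Tns3 the only falls, on both of these lists. Such lists were not made over all genes, so a kept call does not by itself set a member apart.

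Other genes of the adhesion pathway, from lists of ligands, signalling proteins and further adaptors, moved in both directions. The counts of each list stand beside the shares called over all genes tested. Those shares were 38.4% higher and 42% lower in ID8, and 40.3% higher and 43.3% lower in PMJ2R. All values of these lists are by the main scaling. Library totals as the only scaling lowered the median of all genes by 0.43 in ID8 and 0.56 in PMJ2R. Rises of that size or less thus depend on the scaling. Of 20 tested ligand genes in ID8, 5 rose and 13 fell, with a median log2 fold change of -0.46. Fn1, which encodes fibronectin, the ligand of the Itga5 receptor, was at 361 ± 52.9 CPM in ID8 rebastinib cells and 1294 ± 132 CPM in ID8 control cells (log2 fold change of -1.84 ± 0.109 SE, adjusted p = 1.82e-09). Spp1, which encodes osteopontin, a ligand of Itgav receptors, was at 2901 ± 110.4 CPM in ID8 rebastinib cells and 1518 ± 111 CPM in ID8 control cells (log2 fold change of 0.94 ± 0.0813 SE, adjusted p = 7.91e-08). Mfge8, another RGD ligand, was at 257 ± 14.9 CPM in ID8 rebastinib cells and 102 ± 2.09 CPM in ID8 control cells (log2 fold change of 1.34 ± 0.0688 SE, adjusted p = 4.79e-10), and the basement membrane gene Nid1 at 0.251 ± 0.0666 CPM in ID8 rebastinib cells and 4.93 ± 0.249 CPM in ID8 control cells (log2 fold change of -4.30 ± 0.262 SE, adjusted p = 2.4e-09). In PMJ2R 8 ligand genes were tested, 3 rose and 3 fell, with a median of 0.26. Spp1 was at 106 ± 4.97 CPM in PMJ2R rebastinib cells and 26.1 ± 1.30 CPM in PMJ2R control cells (log2 fold change of 2.09 ± 0.0619 SE, adjusted p = 1.69e-15) and Mfge8 at 86.7 ± 4.07 CPM in PMJ2R rebastinib cells and 61.2 ± 2.38 CPM in PMJ2R control cells (log2 fold change of 0.57 ± 0.0542 SE, adjusted p = 1.62e-08). Icam1, a counter-receptor of the Itgb2 integrins, was at 28.0 ± 3.31 CPM in PMJ2R rebastinib cells and 69.7 ± 2.55 CPM in PMJ2R control cells (log2 fold change of -1.25 ± 0.0713 SE, adjusted p = 1.09e-11), and Icam2 at 1.56 ± 0.324 CPM in PMJ2R rebastinib cells and 8.92 ± 1.04 CPM in PMJ2R control cells (log2 fold change of -2.44 ± 0.17 SE, adjusted p = 1.87e-10).

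Of the adhesion signalling genes, 9 rose and 7 fell of 26 tested in ID8, and 18 rose and 6 fell of 27 tested in PMJ2R. Over all genes tested, 80.4% were called in either direction in ID8 and 83.7% in PMJ2R. Their median log2 fold changes were 0.04 in ID8 and 0.56 in PMJ2R, beside -0.07 and -0.04 for all genes. The PMJ2R value is as large as the 0.56 by which library totals as the only scaling lowered the median of all genes there. Crk, the adaptor that binds the Cas and paxillin scaffolds, was at 54.9 ± 3.06 CPM in ID8 rebastinib cells and 134 ± 4.28 CPM in ID8 control cells (log2 fold change of -1.29 ± 0.0716 SE, adjusted p = 1e-09), and at 19.2 ± 1.78 CPM in PMJ2R rebastinib cells and 60.4 ± 3.41 CPM in PMJ2R control cells (log2 fold change of -1.58 ± 0.0757 SE, adjusted p = 8.51e-13). Rhoa, the small GTPase of stress fibres, was at 541 ± 23.9 CPM in ID8 rebastinib cells and 278 ± 5.01 CPM in ID8 control cells (log2 fold change of 0.97 ± 0.0674 SE, adjusted p = 8.96e-09), and at 732 ± 5.53 CPM in PMJ2R rebastinib cells and 348 ± 11.8 CPM in PMJ2R control cells (log2 fold change of 1.14 ± 0.0426 SE, adjusted p = 3.19e-14). Both moved the same way in the lines. Git1 was at 209 ± 11.1 CPM in ID8 rebastinib cells and 98.1 ± 5.29 CPM in ID8 control cells (log2 fold change of 1.09 ± 0.071 SE, adjusted p = 4.38e-09) and Elmo2 at 16.7 ± 1.73 CPM in ID8 rebastinib cells and 40.2 ± 1.66 CPM in ID8 control cells (log2 fold change of -1.26 ± 0.0931 SE, adjusted p = 1.62e-08). Crkl was at 135 ± 2.07 CPM in PMJ2R rebastinib cells and 51.8 ± 3.12 CPM in PMJ2R control cells (log2 fold change of 1.45 ± 0.0528 SE, adjusted p = 2.22e-14), and Csk, the kinase that restrains Src family kinases, at 126 ± 8.51 CPM in PMJ2R rebastinib cells and 274 ± 19 CPM in PMJ2R control cells (log2 fold change of -1.05 ± 0.055 SE, adjusted p = 3.02e-12).

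Of the further adaptors, 12 rose and 14 fell of 33 tested in ID8, and 15 rose and 6 fell of 25 tested in PMJ2R, with medians of 0.11 in ID8 and 0.23 in PMJ2R. Kank1, Kank2 and Kank3, whose products bind talin, all fell in ID8, while in PMJ2R Kank2 fell and Kank3 rose. Kank3 was at 2.29 ± 0.363 CPM in ID8 rebastinib cells and 31.6 ± 1.00 CPM in ID8 control cells (log2 fold change of -3.79 ± 0.124 SE, adjusted p = 9.28e-12), but rose in PMJ2R, to 8.59 ± 0.41 CPM in rebastinib cells, against 2.04 ± 0.324 CPM in control cells (log2 fold change of 2.15 ± 0.149 SE, adjusted p = 1.75e-10). Kank1 was at 22.1 ± 3.37 CPM in ID8 rebastinib cells and 123 ± 0.203 CPM in ID8 control cells (log2 fold change of -2.47 ± 0.0957 SE, adjusted p = 3.53e-11) and was not tested in PMJ2R. Kank2 was at 1.81 ± 0.466 CPM in PMJ2R rebastinib cells and 42.3 ± 2.84 CPM in PMJ2R control cells (log2 fold change of -4.48 ± 0.124 SE, adjusted p = 7.22e-16), and in ID8 at 44.2 ± 4.79 CPM with rebastinib and 127 ± 4.05 CPM in control (log2 fold change of -1.52 ± 0.0828 SE, adjusted p = 8.26e-10). Kank3 in PMJ2R and Kank2 in ID8 were added after their values were seen. Cav1 was at 268 ± 18.9 CPM in ID8 rebastinib cells and 104 ± 2.86 CPM in ID8 control cells (log2 fold change of 1.37 ± 0.0716 SE, adjusted p = 5.64e-10). The LIM domain gene Limd1 was higher with rebastinib in both lines. It was at 114 ± 3.40 CPM in ID8 rebastinib cells and 59.5 ± 2.49 CPM in ID8 control cells (log2 fold change of 0.94 ± 0.0692 SE, adjusted p = 1.48e-08), and at 279 ± 1.64 CPM in PMJ2R rebastinib cells and 95.1 ± 2.6 CPM in PMJ2R control cells (log2 fold change of 1.62 ± 0.0454 SE, adjusted p = 8.72e-16). Vasp was at 350.3 ± 10.6 CPM in PMJ2R rebastinib cells and 123 ± 7.54 CPM in PMJ2R control cells (log2 fold change of 1.57 ± 0.0494 SE, adjusted p = 3.56e-15) and the tetraspanin gene Cd151 at 4.94 ± 0.188 CPM in PMJ2R rebastinib cells and 12.2 ± 0.501 CPM in PMJ2R control cells (log2 fold change of -1.23 ± 0.11 SE, adjusted p = 6.77e-09). Of integrin subunits outside the 42, 3 were tested in each line. All 3 fell in ID8, where Itga2b was at 0.469 ± 0.225 CPM in ID8 rebastinib cells and 1.23 ± 0.0797 CPM in ID8 control cells (log2 fold change of -1.38 ± 0.344 SE, adjusted p = 0.00197) and Itga10 at 0.933 ± 0.232 CPM in ID8 rebastinib cells and 1.80 ± 0.54 CPM in ID8 control cells (log2 fold change of -0.92 ± 0.296 SE, adjusted p = 0.0109). In PMJ2R 1 rose and 1 fell, Itgad at 0.997 ± 0.0384 CPM in PMJ2R rebastinib cells and 0.123 ± 0.109 CPM in PMJ2R control cells (log2 fold change of 3.01 ± 0.497 SE, adjusted p = 2.09e-05) and Itga10 at 0.224 ± 0.224 CPM in PMJ2R rebastinib cells and 3.76 ± 0.235 CPM in PMJ2R control cells (log2 fold change of -3.94 ± 0.342 SE, adjusted p = 4.53e-09). These lists are described by their counts and medians, with no test of a list.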

How the data were processed

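RNA was sequenced from 12 libraries, 3 for each combination of line and treatment. The deposited table holds raw read counts per gene and library, whole numbers made by the authors without normalization. Tools named in the submitters' processing notes, without role or order, are STAR 2.6.1c, featureCounts, FastQC and DESeq2, with the build GRCm38, while the annotation and strand setting used for counting are not stated there. Gene symbols, exon lengths and positions came from the GENCODE vM21 annotation (GRCm38).

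Counts were tested with edgeR 4.0.16 in R 4.3.3: TMM scaling, filterByExpr by group, robust quasi-likelihood fits and Benjamini-Hochberg adjustment over all genes tested, with a threshold of 0.05. Each line was fitted on its own 6 libraries, the control cells on the 6 control libraries with a further minimum of 2-fold, and the difference in response on all 12. The scripts were tested on simulated data before use. Standard errors were derived from the log2 fold change and its F statistic. CPM levels were scaled by TMM over all 12 libraries, so the log2 fold changes exceed the log2 ratios of the printed levels by a median of 0.01 in ID8 and 0.07 in PMJ2R and differ by -0.11 between the lines. Levels of different genes were compared only as CPM per kilobase of merged exons. Paralogue shares were compared by exact two-sided permutation tests over libraries.

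Alternatives were DESeq2 1.42.0, limma 3.58.1 (voom), relative log expression size factors, library totals as the only scaling, testing all genes without a filter, keeping genes that averaged 5 CPM or more, blocking on replicate number, removal of trends on exon length and GC content (splines with 5 degrees of freedom), and leaving out each library. Totals of 19025504 to 27070556 counts limit precision. Counting intervals are exact binomial at 95%, floors stand for 3 counts over a group, and both cover counting error only. Replicate libraries of a group differed by more than sampling noise (chi-square per degree of freedom 1.67 to 21.4), so none was treated as a copy.

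The 42 members and the other gene lists were chosen with earlier results of these data known. All members are named. Values of every library are given for the 5 higher and 5 lower called members with the smallest p in each comparison and for the paralogue families above 1 CPM in control cells, and from each other list the 2 called genes per direction with the smallest p.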

Additional observations from a re-analysis of the deposited data

Results flagged for a closer look

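The response to rebastinib differed between PMJ2R and ID8 for 16 of the 24 members tested in both lines, by the interaction term of edgeR at an adjusted p under 0.05, which is what brought each of them here. By the same rule 62.7% of the 12398 genes tested in both lines were called, so such a call does not set a member apart. Values are the log2 response in PMJ2R minus that in ID8. Among the integrin subunits the difference was 1.97 for Itgb4, 0.98 for Itgb2, 0.68 for Itga5, 0.64 for Itgb1, 0.34 for Itgb5 and -3.89 for Itgb7. Among the activators it was 1.20 for Fermt3 and 1.17 for Tln1, and in the integrin-linked kinase complex 0.98 for Lims1. The signalling members differed by 0.74 for Ptk2 and -0.28 for Pxn. Of the proteins that link adhesions to actin, Zyx differed by 1.87, Tns1 by 1.49, Flna by 1.14, Vcl by 0.56 and Actn4 by -0.39. Itgb4, Itgb7, Flna, Ptk2 and Tln1 were called in opposite directions in the lines. Of the 16 differences, all but that of Pxn kept their call under every alternative setting in which they were tested.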

How the results depend on the processing

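Of the 28 members called in ID8, 15 kept their call in every setting that tested them, of 26 in PMJ2R 12 did, of 32 between the control cells 30, and of 18 in the difference of responses 16. Kept calls were not counted over all genes, so these numbers do not set the members apart from other genes. The cause of each change below was not tested.

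With library totals only, 6 members were called higher and 18 lower in PMJ2R (15 and 11 by the main test), and 3 were higher in ID8 (9). Over all genes, 3103 were higher and 8676 lower in PMJ2R (5652 and 6071), and 3540 were higher in ID8 (5687). Signs turned in PMJ2R for Itgb2 (-0.48), Actn1 (-0.43), Ptk2 (-0.35), Actn4 (-0.34), Zyx (-0.22), Ilk (-0.21), Parvg (-0.15), Vcl (-0.05) and Parvb (-0.01), and in ID8 for Lims1 (-0.21), Actn1 (-0.19), Itga7 (-0.15), Ilk (-0.12) and Itgb5 (-0.11), and the difference of responses for Itgb3 was -0.07. Among these, Itgb2, Actn1, Ptk2, Actn4, Ilk and Parvg in PMJ2R were called lower.

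With length and GC trends removed, 6 members were lower in PMJ2R (11), 12 in ID8 (19) and 7 in the difference of responses (4). Over all genes, 5964 were lower in PMJ2R (6071), 6098 in ID8 (6230) and 5204 in the difference (5066). Signs turned in PMJ2R for Fermt3 (0.35), Ptk2b (0.13), Tln2 (0.08) and Itga6 (0.05), in ID8 for Itga6 (0.23), Flna (0.18), Vcl (0.11) and Tln2 (0.02), in the difference for Tln2 (-0.25), Ilk (0.15) and Itgb3 (-0.02), and between control cells for Tln1 (0.42). Among these, Fermt3 and Ptk2b in PMJ2R and Itga6 and Flna in ID8 were called higher.

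With no filter the PMJ2R values were -0.12 for Itgb2, -0.08 for Actn1 and 0.00 for Ptk2, and the difference for Itgb3 was -0.05. With a mean of at least 5 CPM, 3973 genes of all differed between control cells (6966), and the difference for Ilk was 0.06. DESeq2 gave 0.00 for Itga6 in PMJ2R, and DESeq2 and relative log expression size factors each gave 0.04 for Itga6 in ID8 and differences of 0.10 for Ilk and 0.03 for Itga6.

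Leaving out 1 library at a time, Itga6 ran over -0.08 to 0.03 in PMJ2R, -0.08 to 0.05 in ID8 and -0.16 to 0.00 in the difference, Itga7 over -0.06 to 0.63 in ID8, and the differences of Itgb3 over -0.08 to 0.06 and of Ilk over -0.07 to 0.02. The number of members with a lower response in PMJ2R ran from 3 to 7 (7 without ID8 rebastinib replicate 1). In ID8 the rebastinib minus control share of Tln1 among talins ran from -0.0622 to 0.149 percentage points (0.0595 with all libraries) and that of Ptk2 among focal adhesion kinases from -0.038 to 0.0885 (0.0162).

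Replicate numbers did not pair the libraries (correlations of deviations -0.136 to 0.0771). With the replicate block, 16 members were higher and 11 lower in PMJ2R, 9 and 18 in ID8, 14 and 4 in the difference, and 11 and 21 between control cells. Over all genes, 5656 were higher and 6064 lower in PMJ2R, 5428 and 5990 in ID8, 3386 and 4730 in the difference, and 2882 and 4076 between control cells. Among the members, the block ended the call of Flna in ID8 (-0.22, adjusted p = 0.0844) and made a call of Actn1 in PMJ2R (0.14, adjusted p = 0.0204), and changed no other. Members under the filter were tested only without it, where Itga1, Itga2, Parva and Sorbs3 were called in PMJ2R and Itga1 and Itga2 in ID8, on few counts.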
